A study of Saccharomyces cerevisiae with 6 samples.

Results

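Ribose methylation was examined at 6 positions in the 3' part of the 25S rRNA of the yeast Saccharomyces cerevisiae, each the target of its own box C/D snoRNA. They are Um1888 (guided by snR62, gene SNR62), Am2256 (snR63, SNR63), Cm2337 (snR64, SNR64), Um2347 (snR65, SNR65), Um2417 (snR66, SNR66) and Am2640 (snR68, SNR68). They were chosen by guide, as 25S targets of guides that serve 1 position each, and make up 6 of the 37 ribose methylations that the deposited annotation lists in 25S. The assay was RiboMeth-seq, in which RNA is broken at high pH, the fragments are cloned through a tRNA ligase, and the first and last nucleotide of each sequenced fragment are counted at the bond where the RNA broke. The samples were gel-purified large subunit (LSU) rRNA and whole-cell RNA of strain YWD680, called the knock-in, which carries a plasmid with an artificial snoRNA aimed at LSU-U2954. The others were whole-cell RNA of strain YWD486, called the knock-out, in which a plasmid holds the snR67-snR53 region with 1 substitution that prevents methylation of LSU-G2619, and 3 samples of the wild-type strain BY4741: chromatin-associated RNA, gel-purified small subunit (SSU) rRNA and gel-purified LSU rRNA. No label describes a change in any of the 6 guides, so that all 6 sites carry their normal guide in every sample as far as the labels tell. Each group held 1 sample, so that differences between groups have no replicate check and no p-value was calculated. The SSU library was included because its file also holds read ends on 25S.

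Box C/D snoRNAs pair with rRNA through a short antisense element and place the methyltransferase Nop1 (fibrillarin) on 1 nucleotide, to whose ribose 2'-oxygen a methyl group is added. The reaction takes place in the nucleolus while the precursor rRNA is being made and folded. The methyl group blocks cleavage of the neighbouring bond by alkali, so that a methylated position lacks fragment ends. The 6 sites lie in the part of 25S that builds the subunit interface and the peptidyl transferase region. Am2256 belongs to the interface helix that contacts the decoding region of the small subunit, a helix that also carries several pseudouridines made by box H/ACA snoRNAs.

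In the coordinates of the deposited files the sites are read from the minus strand of chromosome XII, within the 25S gene at 460923 to 464318, a non-coding rRNA exon. Um1888 stands at position 462431, Am2256 at 462063 and Cm2337 at 461982. Um2347 stands at 461972, Um2417 at 461902 and Am2640 at 461679. The sources used here do not name the genome build of these coordinates. The 6 guide genes matched the R64 gene table by symbol, lie on 6 different chromosomes, and 0 of them has another snoRNA gene directly beside it there.

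Read ends on 25S numbered 1197181 in knock-in LSU rRNA, 734670 in knock-in whole-cell RNA, 214862 in the knock-out, 18489246 in chromatin, 70381 in the SSU library and 1229170 in wild-type LSU rRNA. The knock-in whole-cell sample came in 2 files, called run 1 and run 2, which were added together by the authors. The counts were turned into a methylation score: 1 minus the read ends at the site divided by the weighted mean of the 6 positions on either side. A score near 1 means that nearly all expected read ends were missing, and a score of 0 that none were. The 95% intervals cover counting error only and treat each read end as independent. Reads that carry no molecular identifier may be copies of 1 molecule, so that the intervals may be too narrow. The score measures protection relative to the neighbouring bonds, so that its value also depends on how even those bonds are. A site counted as detected when its score was above the 99th percentile of 3309 unlisted 25S positions of the same library.

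In wild-type LSU rRNA the bonds at 5 of the 6 sites were almost free of read ends. There were 2 read ends at Um2417, where the neighbours averaged 371, and 3 at Cm2337, where they averaged 369. Am2256 had 9 read ends against a flanking mean of 264, Um1888 had 19 against 572, and Am2640 had 20 against 479. Um2347 was the exception, with 191 read ends against a flanking mean of 492. The drop covers a single position at each of the 5 sites, and the next bond on either side carried many more read ends. At Um1888, for example, the preceding bond held 926 read ends and the following bond 410. At Am2640 these were 396 and 367.

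**Figure D1:**
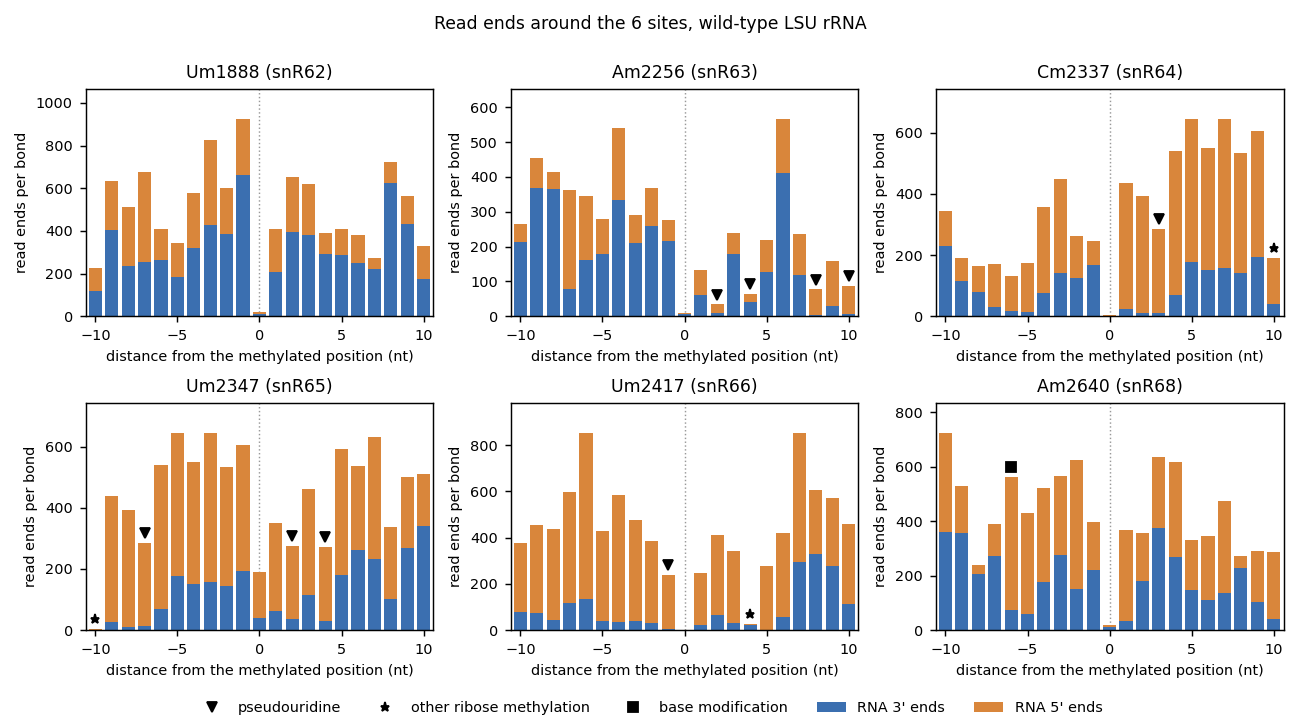
Read ends per bond (y axis, counts; RNA 3' ends and 5' ends stacked) from 10 positions before to 10 positions after each of the 6 sites (x axis, nucleotides) in wild-type LSU rRNA, 1 sample. Triangles, stars and squares mark other annotated modifications; the bar at 0 is nearly gone at 5 sites and holds 191 read ends at Um2347.

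The scores in wild-type LSU rRNA were 0.995 (95% interval 0.980 to 0.999) at Um2417 and 0.992 (0.976 to 0.998) at Cm2337. Um1888 scored 0.967 (0.948 to 0.980), Am2256 0.966 (0.935 to 0.984) and Am2640 0.958 (0.935 to 0.975). Um2347 scored 0.612 (0.551 to 0.666). Um2417 and Cm2337 did not differ beyond counting error, and neither did Um1888, Am2256 and Am2640 as neighbours in this order. Cm2337 was above Um1888 by 0.0251 (0.0046 to 0.0449), and Am2640 was above Um2347 by 0.347 (0.288 to 0.409). Of the 6 sites 5 were detected, with a percentile limit of 0.707, as were 97.3% of all known 25S sites. Among the 37 known sites Um2417 ranked 3 and Cm2337 ranked 5, while Um1888, Am2256 and Am2640 ranked 22, 23 and 25 and Um2347 ranked 37. At or above the score of Um2347 stood 2.84% of the unlisted positions. In the other libraries the 6 sites were detected about as often as the known sites as a whole: 5 of 6 in knock-in LSU rRNA (86.5% of known sites), in knock-in whole-cell RNA (83.8%), in the knock-out (86.5%) and in the SSU library (94.6%), and 3 of 6 in chromatin (56.8%).

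Other modifications lay inside the flanks of 5 of the 6 sites. Um1888 had none within 6 positions and the nearest other ribose methylation, Cm2197, was 309 nucleotides away. Am2256 had pseudouridines at 2258 and 2260, Cm2337 had 1 at 2340, and Um2347 had pseudouridines at 2349 and 2351. Um2417 is preceded directly by a pseudouridine at 2416 and followed by the ribose methylation Um2421 (snR78). Am2640 has m3U2634, a methylated base made by the enzyme Bmt5, at the edge of its flank. In wild-type LSU rRNA the base modifications among these neighbours, apart from the pseudouridine at 2260, had lower scores with 5' ends alone than with 3' ends alone. The pseudouridine at 2340 had 12 read ends of the 3' kind and 273 of the 5' kind, and that at 2416 had 3 and 235. Leaving the listed positions out of the flanks moved the wild-type scores little, to 0.637 at Um2347 and to 0.970 at Am2256.

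Um2417 and Cm2337, the targets of SNR66 and SNR64, had high scores in every library. Um2417 scored 0.946 (0.913 to 0.969) in knock-in LSU rRNA, 0.977 in knock-in whole-cell RNA, 1 in the knock-out, 0.914 in chromatin, 1 in the SSU library and 0.995 in wild-type LSU rRNA. Its read ends in the same order were 16, 4, 0, 360, 0 and 2. Cm2337 scored 0.926 (0.887 to 0.953) in knock-in LSU rRNA, 0.961 in knock-in whole-cell RNA, 0.968 in the knock-out, 0.922 in chromatin, 1 in the SSU library and 0.992 in wild-type LSU rRNA. Its read ends were 22, 9, 2, 156, 0 and 3. The spread between the lowest and highest library was 0.0778 at Cm2337 and 0.0861 at Um2417, the smallest ranges of the 6 sites. For both, the lowest score was that of chromatin and both were detected in 6 of 6 libraries. A score of 1 rests on a count of 0. At 3 counts, the upper limit for a count of 0, Um2417 would score 0.906 in the knock-out and 0.789 in the SSU library, where Cm2337 would score 0.790.

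Um1888, the target of SNR62, varied more, and its lowest value came from the knock-in. It scored 0.767 (0.696 to 0.825) in knock-in LSU rRNA, 0.882 (0.824 to 0.924) in knock-in whole-cell RNA, 1 in the knock-out, 0.876 (0.862 to 0.888) in chromatin, 1 in the SSU library and 0.967 in wild-type LSU rRNA. The read ends numbered 55, 24, 0, 356, 0 and 19. The site was detected in each library, in knock-in LSU rRNA by a narrow margin over the limit of 0.714, which lay within its interval. In the SSU library the limit of 0.734 also lay within its interval. At 3 counts it would score 0.915 in the knock-out and 0.771 in the SSU library. In knock-in LSU rRNA it had 40 read ends of the 5' kind and 15 of the 3' kind, and the scores were 0.692 with 5' ends alone and 0.858 with 3' ends alone. In knock-in whole-cell RNA 3' ends stood out at single bonds nearby, with 282 at position 1885, 397 at 1890 and 240 at 1894. In run 2 the highest flanking count was 10.2 times the flanking median. In the authors' deposited table, Score A, a statistic other than the score used here, was 0.110 at Um1888 in the combined whole-cell file. The authors' deposited table gave 0.455 in run 2 and 0.638 in run 1, so that the value of the combined file lay below both.

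Am2256 and Am2640, the targets of SNR63 and SNR68, were strongly protected outside chromatin and had lower scores in it. Am2256 scored 0.920 (0.863 to 0.958) in knock-in LSU rRNA, 0.961 in knock-in whole-cell RNA, 1 in the knock-out, 0.602 (0.582 to 0.620) in chromatin, 1 in the SSU library and 0.966 in wild-type LSU rRNA. The read ends were 13, 5, 0, 1802, 0 and 9. Am2640 scored 0.867 (0.807 to 0.912) in knock-in LSU rRNA, 0.919 in knock-in whole-cell RNA, 0.945 in the knock-out, 0.698 (0.690 to 0.707) in chromatin, 1 in the SSU library and 0.958 in wild-type LSU rRNA. The read ends were 28, 19, 3, 5198, 0 and 20. Chromatin was the lowest library for both sites, and both were detected in each library but chromatin, where the limit was 0.811. In the SSU library the limit of 0.734 lay within the intervals of both, which rest on 0 read ends. At 3 counts in place of 0, Am2256 would score 0.894 in the knock-out and 0.765 in the SSU library, and Am2640 would score 0.734 in the SSU library.

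Um2347, the target of SNR65, had intermediate scores in every library and was detected in 0 of 6. It scored 0.344 (0.253 to 0.427) in knock-in LSU rRNA, 0.348 (0.212 to 0.464) in knock-in whole-cell RNA, 0.454 (0.240 to 0.618) in the knock-out, 0.475 (0.445 to 0.503) in chromatin, 0.234 (0 to 0.637) in the SSU library and 0.612 in wild-type LSU rRNA. The read ends were 238, 114, 37, 1322, 10 and 191. Wild-type LSU rRNA was the highest of the 6 libraries, and the intervals of knock-in LSU rRNA, knock-in whole-cell RNA and chromatin lay below its interval. Among the 37 known sites it ranked between 35 and 37 in each library. The share of unlisted positions with a score as high or higher was 20.5% in knock-in LSU rRNA, 28.5% in knock-in whole-cell RNA, 14.9% in the knock-out, 18.1% in chromatin, 29.4% in the SSU library and 2.84% in wild-type LSU rRNA. In the other libraries, more than in wild-type LSU rRNA, unlisted positions thus reached the score of this site.

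The score of Um2347 depended on which side of it was used as the comparison. The positions before it averaged 459 read ends in knock-in LSU rRNA and 588 in wild-type LSU rRNA. The positions after it, which hold both pseudouridines, averaged 267 and 396. With the preceding side alone the score was 0.482 in knock-in LSU rRNA, 0.506 in knock-in whole-cell RNA, 0.529 in the knock-out, 0.564 in chromatin, 0.343 in the SSU library and 0.675 in wild-type LSU rRNA. With the following side alone these were 0.108, 0.0417, 0.349, 0.339, 0.0816 and 0.517. Wild-type LSU rRNA was highest with either side. Leaving out the 2 pseudouridines gave 0.382 in knock-in LSU rRNA, 0.523 in chromatin and 0.637 in wild-type LSU rRNA. Cm2337 lies 10 positions before Um2347, so that positions 2341 to 2343 enter the flanks of both sites.

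**Figure D2:**
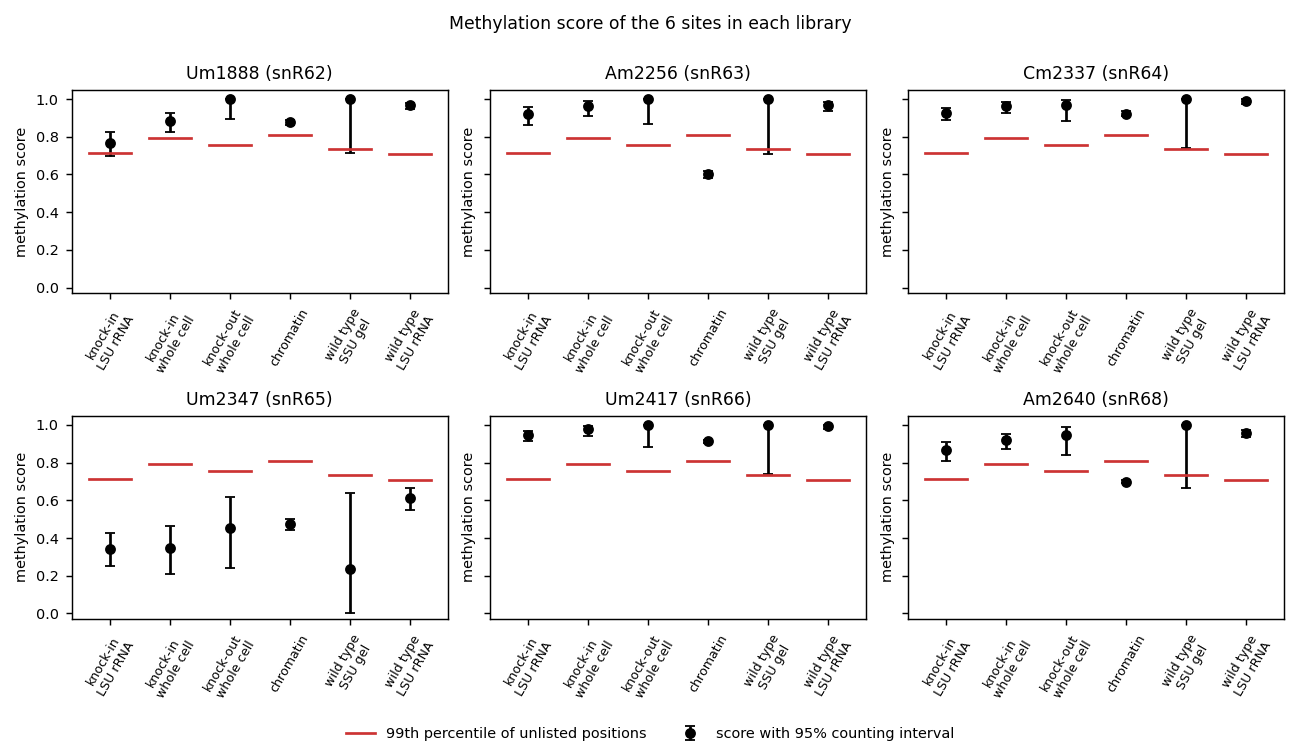
Methylation score (y axis, 0 to 1) of each site in 6 libraries with 1 sample each; points are scores, bars the 95% counting interval and red lines the 99th percentile of unlisted positions of that library. Um2347 lies under the line in each library, Am2256 and Am2640 lie under it in chromatin (0.602 and 0.698), and the remaining points lie above it.

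For comparisons between libraries a site was called different when the 95% counting interval of its score difference excluded 0 and the difference exceeded 0.329. That limit is 2 SD of the difference between run 2 and run 1 of the knock-in whole-cell sample over the 37 known sites. It is dominated by Um2421, without which it would be 0.164. Whether it reflects variation of sequencing or of library preparation is not known. Differences between the runs at the 6 sites were all within 0.329, and 5 of them were also within 0.164. The scores in run 2 and run 1 were 0.902 and 0.852 at Um1888, 0.953 and 0.978 at Am2256, and 0.956 and 0.968 at Cm2337. They were 0.970 and 1 at Um2417 and 0.925 and 0.912 at Am2640. Um2347 differed most, with 0.197 (31 read ends) in run 2 and 0.390 (83 read ends) in run 1, a difference of -0.193 (-0.427 to 0.109) whose interval held 0, as did those of the other 5 sites. Several comparisons below share the wild-type LSU library and are not independent of each other.

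Knock-in against wild-type LSU rRNA compares gel-purified rRNA with and without the artificial guide and asks whether normal sites far from its target keep their protection. Scores were lower in value at all 6 sites and at 36 of the 37 known sites. The median difference was -0.0789, beside -0.0663 over the known sites. None of the 6 was called, against 5.41% of known sites called lower. The largest differences were -0.267 (-0.374 to -0.165) at Um2347 and -0.200 (-0.272 to -0.139) at Um1888. The interval also excluded 0 at Am2640 (-0.0914), Cm2337 (-0.0663) and Um2417 (-0.0484), and held 0 at Am2256 (-0.0457). Over the known sites 28 of 37 intervals excluded 0. With the limit of 0.164, Um2347 and Um1888 were called lower, 2 of 6 sites against 24.3% of known sites, although Um2347 differed by -0.193 between the runs, which is past that limit. The file of knock-in LSU rRNA records read handling of its own, so that strain and handling cannot be told apart.

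Knock-in against knock-out whole-cell RNA compares 2 strains of which neither is altered in these guides. No site of the 6 was called, against 5.41% of known sites called lower and 2.7% called higher, and none with the limit of 0.164, against 8.11% called lower. Values were lower in the knock-in at all 6 sites and at 28 of the 37 known sites. The median was -0.0323, beside -0.0267 over the known sites. The interval excluded 0 at Um1888 alone, where the difference was -0.118 (-0.176 to -0.00505), with 24 read ends in the knock-in and 0 in the knock-out. Over the known sites 8 of 37 intervals excluded 0. At Um2347 the difference was -0.106 (-0.319 to 0.137), an interval wide enough to hold a change of either sign.

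Knock-out against wild-type LSU rRNA asks whether loss of the neighbouring methylation at LSU-G2619 touches these sites, of which Am2640 is nearest, 21 nucleotides away. Am2640 scored 0.945 (0.839 to 0.989) in the knock-out and 0.958 in wild-type LSU rRNA, a difference of -0.0131 (-0.120 to 0.0361). None of the 6 sites was called, against 5.41% of known sites called lower (8.11% with the limit of 0.164, where none of the 6 was called either). Of the intervals 0 of 6 excluded 0, against 5 of 37 over the known sites. Differences were positive at Um1888 (0.0332), Am2256 (0.0341) and Um2417 (0.0054) and negative at Cm2337 (-0.0238) and Um2347 (-0.158, -0.378 to 0.0166). The knock-out RNA was whole-cell and the wild-type RNA gel-purified, so that strain and RNA type cannot be told apart.

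Chromatin-associated against gel-purified LSU rRNA of the same strain sets RNA that is still attached to chromatin, and so includes rRNA being made, beside mature rRNA. Scores were lower in value at all 6 sites and at 36 of the 37 known sites. The median difference was -0.114, beside -0.137 over the known sites. Of the intervals 6 of 6 excluded 0, as did 37 of 37 at the known sites. Am2256 was called lower, by -0.364 (-0.391 to -0.328), 1 of 6 sites against 8.11% of known sites called lower. Am2640 followed with -0.260 (-0.278 to -0.236), Um2347 with -0.137 (-0.198 to -0.0701), Um1888 with -0.0911, Um2417 with -0.0807 and Cm2337 with -0.0697. With the limit of 0.164, Am2256 and Am2640 were called, against 35.1% of known sites. The call at Am2256 was lost with 3' ends alone (-0.123, limit 0.263), with flanks of 2 positions (-0.316, limit 0.373), with the listed neighbours left out of the flanks (-0.325, limit 0.331) and with the preceding flank alone (-0.284, limit 0.313). With negative scores kept, the difference was still -0.364 and only the limit was higher, at 0.453.

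**Figure D3:**
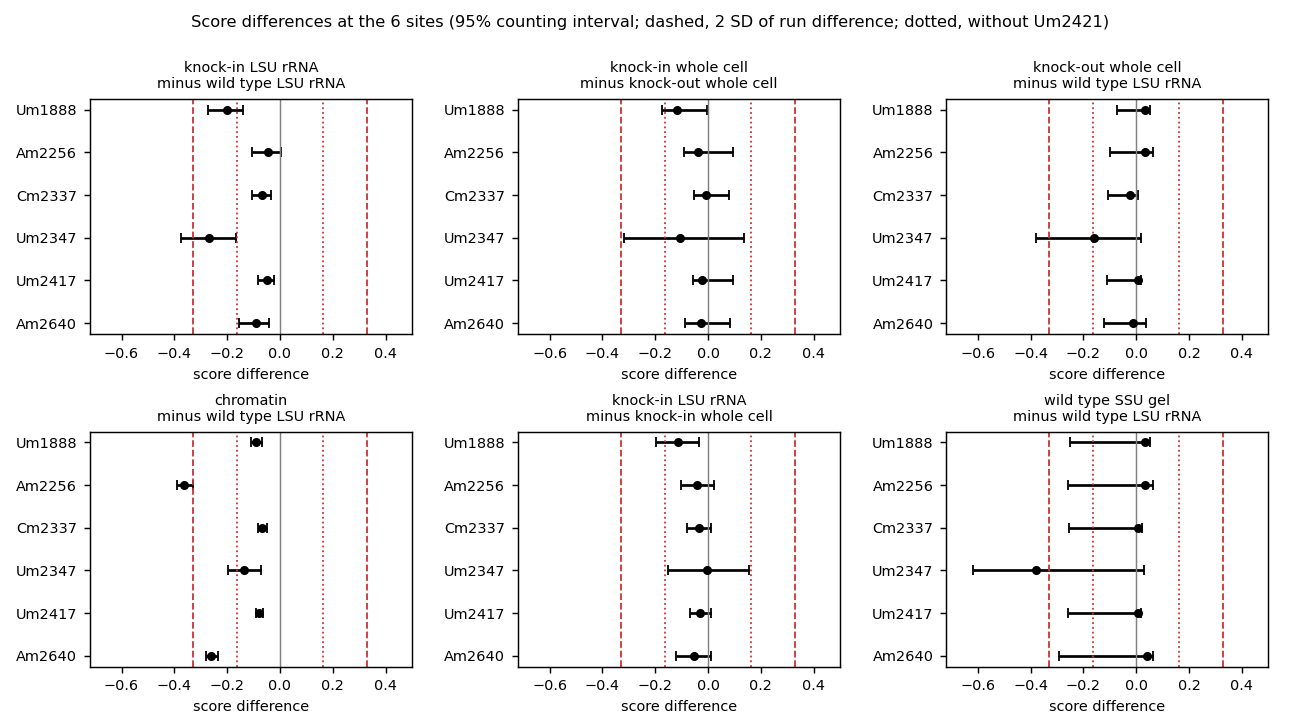
Score differences (x axis) at the 6 sites (rows) in 6 comparisons, each of 1 sample against 1; bars are 95% counting intervals, dashed lines the limit of 0.329 and dotted lines that of 0.164. Am2256 in chromatin (-0.364) is the point past the dashed line whose interval excludes 0; Um2347 in the SSU library also passes the line, with an interval that holds 0.

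At Am2256 and Am2640 the chromatin library held far more 5' ends than 3' ends. Of the 5198 read ends at Am2640 5131 were 5' ends and 67 were 3' ends, so that 5' ends made up 98.7% (95% Wilson interval with a lower bound of 98.4%). Of the 1802 read ends at Am2256 1653 were 5' ends and 149 were 3' ends, or 91.7% (90.4% to 92.9%). The flanks leaned the same way in chromatin, with 95.1% 5' ends around Am2640 and 77.6% around Am2256, while 5' ends were 49.5% of read ends over the whole 25S. At Am2640 the 5' and 3' ends numbered 20 and 8 in knock-in LSU rRNA, 15 and 4 in knock-in whole-cell RNA, 3 and 0 in the knock-out, and 8 and 12 in wild-type LSU rRNA. More 5' than 3' ends at Am2640 were therefore not particular to chromatin. At Am2256 they numbered 4 and 9 in knock-in LSU rRNA, 2 and 3 in knock-in whole-cell RNA, and 1 and 8 in wild-type LSU rRNA. The SSU library had 0 read ends at both sites, as had the knock-out at Am2256.

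With 3' ends alone, Am2640 scored 0.898 (0.871 to 0.921) in chromatin and 0.932 (0.882 to 0.965) in wild-type LSU rRNA, a difference of -0.0341 (-0.0769 to 0.0216). With 5' ends alone it scored 0.690 in chromatin and 0.973 in wild-type LSU rRNA, a difference of -0.283 (-0.301 to -0.256). Am2256 scored 0.831 with 3' ends alone in chromatin and 0.954 in wild-type LSU rRNA, a difference of -0.123 (-0.162 to -0.0706). With 5' ends alone its scores were 0.546 in chromatin and 0.989 in wild-type LSU rRNA, a difference of -0.443 (-0.468 to -0.387). The low chromatin scores of both sites thus came mainly from the 5' ends, and at Am2640 the interval with 3' ends alone held 0.

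The 5' ends in chromatin were piled up around Am2640. The bond before it, at position 2639, held 60199 5' ends, the highest 5' count of all 3396 positions of 25S in that library, against 364 3' ends. Positions 2635 to 2638 held 8235, 18998, 37497 and 21979 5' ends. On the other side, positions 2641 to 2643 held 5861, 7736 and 5778, and position 2645 held 909. The 13 positions centred on Am2640 took up 1.94% of all 25S 5' ends in chromatin but 0.0966% of the 3' ends. The 5' share of the same window was 0.279% in knock-in LSU rRNA, 0.646% in knock-in whole-cell RNA, 0.517% in the knock-out, 0.282% in the SSU library and 0.597% in wild-type LSU rRNA. Because the pile lay mostly before the site, its score in chromatin was 0.825 with the preceding side as the comparison and 0 with the following side.

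At Am2256 the preceding bond held 9339 5' ends in chromatin and the following bond 4388. The 13 positions around it took up 0.470% of 25S 5' ends and 0.130% of 3' ends in chromatin, against 0.189% and 0.359% in wild-type LSU rRNA. Counts of 3' ends fell in a narrow notch at the site in chromatin as well, with 149 at the site, 1035 at the preceding bond and 391 at the following bond. The part of uneven neighbours in the chromatin differences was not tested.

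**Figure D4:**
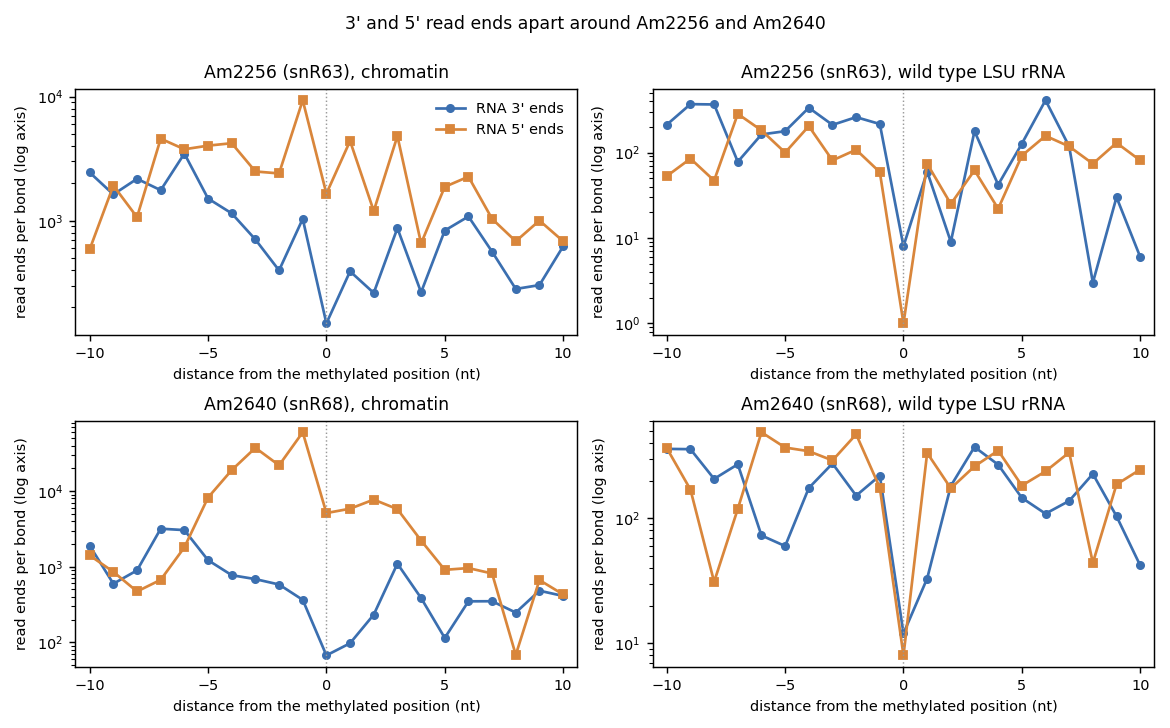
Read ends per bond (y axis, counts on a log axis) by distance from Am2256 and Am2640 (x axis, nucleotides), with RNA 3' ends and 5' ends apart, in chromatin (left) and in wild-type LSU rRNA (right), 1 sample each. In chromatin the 5' ends reach 60199 before Am2640 while the 3' ends there number 364, and both kinds dip at the sites in wild-type LSU rRNA.

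At the other sites the ends differed less or in the opposite way. Um2347 scored 0.256 (0.196 to 0.312) with 3' ends alone in chromatin and 0.677 (0.560 to 0.769) in wild-type LSU rRNA, a difference of -0.421 (-0.530 to -0.291) that passed the limit for 3' ends, 0.263. With 5' ends alone it scored 0.601 in chromatin and 0.589 in wild-type LSU rRNA, a difference of 0.0120 (-0.0599 to 0.0910). The lower chromatin score of Um2347 thus lay in its 3' ends. Um1888 differed between chromatin and wild-type LSU rRNA by -0.0942 with 3' ends and -0.0893 with 5' ends, Cm2337 by -0.0986 and -0.0508, and Um2417 by -0.114 and -0.0423.

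**Figure D5:**
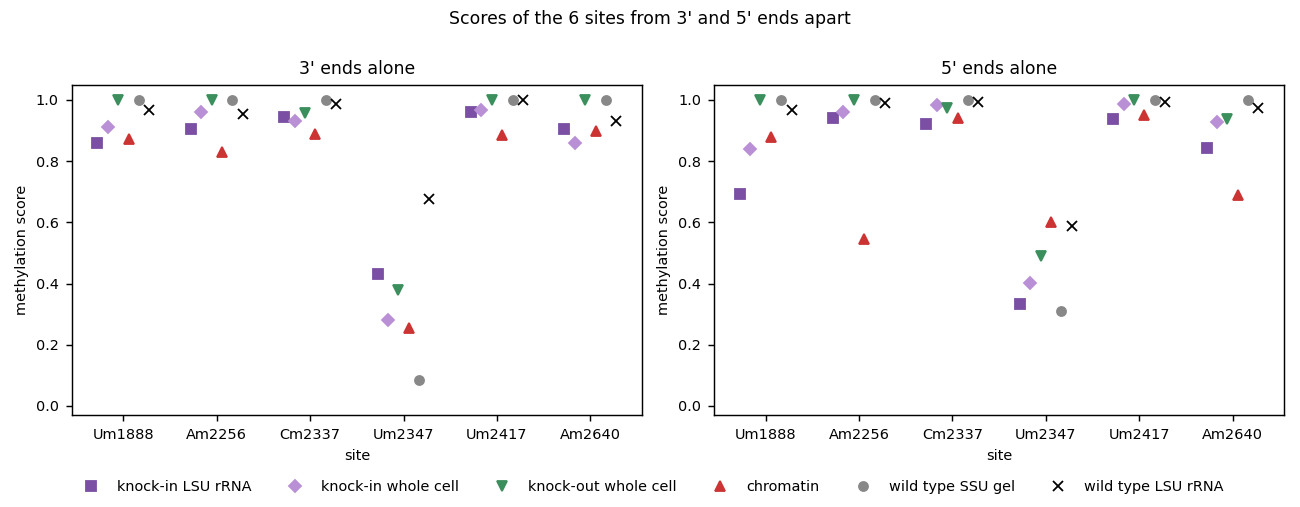
Methylation score (y axis) of the 6 sites (x axis) computed from 3' ends alone (left) and from 5' ends alone (right), with 1 symbol per library. In chromatin Am2256 and Am2640 are low with 5' ends (0.546 and 0.690), and Um2347 is low with 3' ends (0.256).

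Knock-in LSU rRNA against knock-in whole-cell RNA compares RNA types within 1 strain, but the read handling recorded for the LSU file alone cannot be told apart from the RNA type. None of the 6 sites was called, against 2.7% of known sites called lower and 2.7% called higher. Values were lower in LSU rRNA at all 6 sites and at 29 of the 37 known sites. The median was -0.0382, beside -0.0257 over the known sites. With the limit of 0.164 none was called either, against 10.8% called lower. The interval excluded 0 at Um1888 alone, with -0.115 (-0.198 to -0.0330), and at 11 of the 37 known sites. At Um2347 the 2 scores of 0.344 and 0.348 differed by -0.0034 (-0.152 to 0.155). With 3' ends alone the difference at Um2347 was 0.150 (-0.177 to 0.449) and with 5' ends alone -0.0688 (-0.246 to 0.133), so that the near-equal values do not show equal protection.

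The SSU library against wild-type LSU rRNA sets a second group of 25S read ends of the wild-type strain beside the first. Its median was 18 read ends per position against 333. The origin of the 25S fragments in this gel-purified SSU library was not tested. There were 0 read ends at 5 of the 6 sites and 10 at Um2347. None of the 6 was called, against 2.7% of known sites called lower. Um2347 scored 0.234 in the SSU library and 0.612 in LSU rRNA, a difference of -0.378 (-0.618 to 0.0298) whose interval held 0. At the 5 sites with a count of 0 the differences lay between 0.0054 and 0.0418, with lower bounds between -0.252 and -0.291. The intervals thus held losses down to these bounds, and a loss had to exceed 0.329 to be called.

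Each site was set beside the other 36 known 25S sites by the root mean square difference of its scores over the 6 libraries, as a description. Most alike to Um2417 was Am807 (snR39), with a difference of 0.0141, and to Cm2337 it was Um2417 (0.0173). Um1888 was most like Am2220 (snR47, 0.0358), Am2640 was most like Am649 (U18, 0.0469) and Am2256 was most like Am2640 (0.0533). Um2347 had no close counterpart: the nearest, Um2421 (snR78), differed by 0.298. Um2421 scored 0.774 in knock-in LSU rRNA, 0.0276 in knock-in whole-cell RNA, 0.444 in the knock-out, 0.604 in chromatin, 0.592 in the SSU library and 0.930 in wild-type LSU rRNA. Um2421 stands within the flank of Um2417, whose own score stayed at or above 0.914 in those libraries.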

How the data were processed

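Read ends were counted per rRNA bond by the authors; the submitters' processing notes name cutadapt 1.2 and Bowtie2 2.1.0, and the sources used here do not give their options. Each of the 8 deposited sample files stacks 6 tracks in 1 column: counts of RNA 3' ends, of 5' ends and of both, without normalization per the file headers, followed by scores made by the authors. The third track was the sum of the first and second at all 3396 positions of 25S in each file, and the combined whole-cell file was the sum of its 2 runs at each. Track headers of the knock-in LSU file state that mapping to 35S allowed no errors within 3 nucleotides of the RNA end, and no header says so for the other files. After its last track, that file holds a second series of values without a header. These equalled the score used here at 3384 of 3384 positions (tolerance 1e-09).

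The score used here is 1 minus the count over the mean of the left and right flanks, each weighted from 1 to 0.5 over 6 positions, with negative values set to 0. Intervals combined exact Poisson limits of the count with normal limits of the flank mean in closed form (MOVER), which gives a width also to counts of 0, and were tested on simulated data. Positions were counted from the 5' end of 25S. Named were the 6 sites, listed modifications within 6 positions, and the most alike known site. The members, lists and alternatives were chosen with earlier results of these data known. Calculations used Python 3.11.15 with numpy 2.4.6, scipy 1.17.1 and pandas 2.3.3. The sequence of 25S was not used here.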

Additional observations from a re-analysis of the deposited data

How the results depend on the processing

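No paired analysis was possible because each group held 1 sample. The count of detected sites in wild-type LSU rRNA stayed within 1.5 times the reported count under all 11 alternatives tried for it. With the 95th percentile as the limit, Um2347 was detected there as well, since 2.84% of unlisted positions stood at or above its score. The count of sites called in knock-in against wild-type LSU rRNA, 0 as reported, was 2 with 5' ends alone, 1 with the following flank alone and 2 with the limit without Um2421. In chromatin against wild-type LSU rRNA, where 1 was reported, it was 2 with 5' ends alone, with the following flank alone, with the limit without Um2421 and with the median of the flanks, the last chosen after seeing the data. It was 0 with flanks of 2 positions, without listed modifications in the flanks (-0.325 at Am2256), with the preceding flank alone, with negative scores kept and with the limit set to the greatest difference between the runs. With 3' ends alone it was 1, at Um2347 in place of Am2256. In the SSU library against wild-type LSU rRNA it was 1 with the median of the flanks and 0 as reported. Among these alternatives, shares of known sites were computed for the limit without Um2421 only. There 24.3% were called lower in knock-in LSU rRNA and 35.1% in chromatin. With 5' ends alone, known sites outside the 6 also passed the limit of 0.182. Examples are Am876 (-0.303) in knock-in LSU rRNA, and Gm867 (-0.644) and Gm2922 (-0.460) in chromatin. Whether the counts at the 6 sites exceed such shares was not tested. Of 438 differences at single sites under alternatives 421 kept their side of the threshold. None that was called in either setting changed sign. Differences that were not called could change sign, as at Um2347 in chromatin against wild-type LSU rRNA. There the difference was -0.137 as reported and 0.0120 with 5' ends alone. Of 336 scores 54 moved outside their counting interval. The causes of these changes were not tested, except that a smaller limit admits smaller differences. Depth limits the knock-out and the SSU library, where 3 and 5 of the 6 sites had 0 read ends.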

Other observations

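In knock-in and in wild-type LSU rRNA the pseudouridines beside the sites had higher scores with 3' ends alone than with 5' ends alone, apart from that at 2260 in wild type. In the other libraries this held at 2340, 2349 and 2351, but not at each of the others. At 2258 the 3' and 5' scores were 0.549 and 0.603 in knock-in whole-cell RNA and 0.582 and 0.616 in chromatin. At 2260 they were 0.514 and 0.747 in knock-in whole-cell RNA, 0.389 and 0.586 in the knock-out, and 0.549 and 0.749 in chromatin. At 2416 they were 0.287 and 0.654 in the SSU library, which had 7 read ends there. The pseudouridine at 2340, 3 positions after Cm2337, scored 0.937 with 3' ends alone and 0.226 with 5' ends alone in knock-in LSU rRNA, and 0.885 and 0.191 in wild-type LSU rRNA. That at 2416, directly before Um2417, scored 0.913 and 0.367 in knock-in LSU rRNA and 0.926 and 0.286 in wild-type LSU rRNA. The pair after Um2347 scored 0.788 and 0.841 with 3' ends alone in knock-in LSU rRNA, at 2349 and 2351, and 0.734 and 0.816 in wild-type LSU rRNA. With 5' ends alone these 2 positions scored 0.302 and 0.400 in knock-in LSU rRNA and 0.275 and 0.197 in wild-type LSU rRNA. At 2260, beside Am2256, the 3' and 5' scores were 0.803 and 0.619 in knock-in LSU rRNA and 0.660 and 0.729 in wild-type LSU rRNA. The base-methylated m3U2634 scored 0 with both ends in knock-in and in wild-type LSU rRNA, but 0.831 and 0.672 with 3' ends alone. In chromatin it was the reverse, with 0.645 with both ends, 0 with 3' ends alone and 0.856 with 5' ends alone. Its following flank in chromatin holds the 5' ends piled up before Am2640, with 60199 at position 2639. The part of this pile in these scores was not tested.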
